A study of Mus musculus with 30 samples.

Results

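The genes described here encode heat shock proteins and J-domain chaperones, followed through 10 groups of mouse dendritic cells. A gene was a member where its symbol began with Hspa, Hspb, Hspd, Hspe or Hsph and a digit, with Hsp90, or with Dnaja, Dnajb or Dnajc and a digit. Left out by name were 5 endoplasmic reticulum genes, Hspa5, Hsp90b1, Dnajb9, Dnajb11 and Dnajc3, and the members were not otherwise sorted by compartment. That rule took 67 of the 25611 gene rows: 12 of the HSP70 family, 1 HSP110 (Hsph1), 2 HSP90, 42 J-domain genes (4 DNAJA, 11 DNAJB and 27 DNAJC), the mitochondrial pair Hspd1 and Hspe1, and 8 small heat shock proteins. The rule and these family names read symbols alone, so Hspa4 and the HSP110-related Hspa4l are counted as HSP70. Even so, this set of genes was chosen with earlier results of these data known.

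HSP70 proteins bind exposed hydrophobic stretches of unfolded proteins in a cycle driven by ATP. J-domain proteins deliver clients and trigger ATP hydrolysis, and HSP110 acts as a nucleotide exchange factor that resets the cycle. HSP90 takes over partly folded clients, the HSP60 and HSP10 chamber folds proteins in the mitochondrial matrix, and small heat shock proteins hold unfolded proteins without ATP. The inducible members are controlled by the transcription factor HSF1, which binds heat shock elements built of inverted GAA units. In dendritic cells, HSP70 and HSP90 are known for carrying antigenic peptides and for a part in moving ingested antigen to the cytosol.

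Bone marrow cells were cultured for 6 to 7 days with FLT3L at 200 ng/ml, the cytokine that drives dendritic cell growth, so every group, controls included, had been exposed to it. The cells carried a knockout of Rubcn (KO), which encodes a protein needed for LC3-associated phagocytosis, or were wild type (WT). Each genotype was left untreated, or received ovalbumin (OVA), a soluble protein antigen, or dying (apoptotic) cells of the human leukaemia line Jurkat, which is of T-cell origin. Exposure lasted 30 min or 4 h, which made 10 groups of 3 libraries each. The labels give neither the strain and age of the mice, nor whether the knockout was confined to one cell type, nor whether replicates came from separate mice, so p-values measure only the spread between these libraries.

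Total counts ran from 9.73 M to 51.6 M per library, with a median of 44.9 M. The lowest was library 3 of KO cells given OVA for 30 min, and the next lowest library had 38.7 M. Rubcn itself was lower in every KO library than in every WT library of the same condition, at 72.8 ± 2.74 CPM (the usual depth-scaled read count; SD, n = 3) against 98.9 ± 4.96 CPM in untreated cells. Levels are CPM on library sizes scaled with TMM factors, and differences are log2 fold changes with a standard error (SE) from edgeR's quasi-likelihood test. A call is an FDR (the p-value after Benjamini-Hochberg adjustment across the 14808 genes tested) under 0.05. Of the 67 members, 60 were tested. The other 7 (Dnajb3, Dnajb8, Dnajc22, Dnajc5b, Dnajc5g, Hspb2 and Hspb3) had at most 10 counts in any library and were filtered out. A further 5 tested members (Dnajb7, Hspa12a, Hspa12b, Hspb7 and Hspb9) stayed under 1 CPM in every group. Markers of dendritic cells were present at a summed 24957 CPM in untreated WT cells. Most of that sum came from Cd74, H2-Aa and H2-Ab1, at 9258, 6283 and 4489 CPM, while Flt3 stood at 567 and Zbtb46 at 88.7 CPM. In the same cells markers of monocytes and macrophages summed to 4298 CPM and those of plasmacytoid dendritic cells to 2723 CPM. Those of stroma and endothelium summed to 776 CPM and those of basophils and mast cells to 155 CPM.

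In untreated WT cells the chaperone pool was dominated by constitutive genes. Per kilobase of transcript, Hsp90ab1, the constitutive cytosolic HSP90, stood at 591 CPM per kb and Hspa8, the constitutive cytosolic HSP70 (HSC70), at 477 CPM per kb. Dnajc7, a J-domain protein that joins HSP70 and HSP90, followed at 132 CPM per kb, Dnajc8, which is tied to splicing, at 97.9, the mitochondrial HSP10 gene Hspe1 at 72.5, the mitochondrial HSP70 gene Hspa9 at 68.5 and the inducible HSP90 gene Hsp90aa1 at 66.4 CPM per kb. The stress-inducible HSP70 genes lay at the other end, with 0.317 CPM per kb for Hspa1a and 0.644 CPM per kb for Hspa1b. These lengths are those of the longest coding transcript in the GENCODE annotation, so a gene with a long rare isoform is understated. Within families the range was wide: Dnaja2 stood at 46.4 CPM per kb and Dnaja4 at 0.299, and among small heat shock proteins Hspb11, an atypical member that also serves in cilia, stood at 14.8 and Hspb1 (HSP25) at 1.03 CPM per kb. Summed over the 67 members, untreated WT cells held 5643 ± 116 CPM (SD, n = 3) and untreated KO cells 5634 ± 34.6 CPM, and Hsp90ab1 with Hspa8 made up 45.3% to 47.6% of it in those 6 libraries.

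After 4 h with apoptotic Jurkat cells more chaperone genes rose than fell on TMM-scaled counts, led by the inducible HSP70 pair, and scaling by library totals turned that split to 15 higher and 29 lower in WT and 15 higher and 28 lower in KO cells. In WT cells 33 of the 60 tested members rose (55.0%) and 17 fell (28.3%), against 38.9% higher, 40.6% lower and 79.5% called in either direction among all genes tested. In KO cells 30 rose (50%) and 15 fell (25%), against 37.5% higher, 41.0% lower and 78.5% called among all genes. The median log2 fold change of the members was 0.32 in WT and 0.20 in KO cells, against -0.02 and -0.03 over all genes. The 67 members summed to 8995 ± 567 CPM in WT cells and to 7714 ± 162 CPM in KO cells. Of the 50 members called in WT and the 45 called in KO cells, 42 were called in both, all in the same direction, which is 84.0% of the WT and 93.3% of the KO calls. Over all genes the shared calls were 91.5% of the WT and 92.7% of the KO calls, and 99.8% of them had the same direction. The WT and KO calls rest on separate libraries. Whichever library was left out, 41 of the 50 WT calls and 38 of the 45 KO calls held.

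Hspa1a and Hspa1b encode nearly the same inducible HSP70 protein and lie side by side on mouse chromosome 17 (mm10, Hspa1a at chr17:34969359-34972156 and Hspa1b at chr17:34956429-34959238, both on the minus strand). Hspa1a measured 0.801, 1.10 and 0.918 CPM in the 3 untreated WT libraries and 50.03, 82.6 and 54.0 CPM after 4 h with Jurkat cells. In KO cells it measured 0.903, 0.974 and 0.882 CPM untreated and 34.9, 32.1 and 33.8 CPM after 4 h with Jurkat cells. All 6 libraries of the 4 h Jurkat groups stood far above the other 24, and the 3 WT libraries above the 3 KO libraries. The rise was 6.04 ± 0.19 (SE, FDR = 3.2e-22) in WT and 5.19 ± 0.19 (FDR = 2.0e-20) in KO cells, by edgeR's quasi-likelihood test. Mean counts behind these values were 44.0 per untreated WT library and 2155 per WT library with Jurkat cells.

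Hspa1b followed the same course. It measured 1.69, 1.64 and 2.08 CPM in untreated WT libraries and 40.7, 70.4 and 48.7 CPM after 4 h with Jurkat cells. In KO cells the values were 1.89, 1.97 and 1.44 CPM and 27.7, 28.3 and 30.9 CPM. Again the 4 h Jurkat groups overlapped neither the untreated groups nor each other. The rises were 4.88 ± 0.17 in WT and 4.03 ± 0.17 in KO cells. Of the 50-base words in the Hspa1a transcript, 58.8% also occur in the Hspa1b transcript, and how the authors' counting treated reads that match both copies is not given in the sources used here, so the split between the 2 genes is uncertain.

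The sequences before both starts carry the same letters of a heat shock element pair, and they are shown because these genes rose most. The 250 bases before each annotated start (RefSeq, GRCm38.p6, minus strand, chr17:34972157-34972406 for Hspa1a and chr17:34959239-34959488 for Hspa1b) are identical at 247 of 250 positions. The capitals mark the match to GAANNTTC, a pair of inverted GAA units, which begins at position -104 counted from the start in both.
Hspa1a: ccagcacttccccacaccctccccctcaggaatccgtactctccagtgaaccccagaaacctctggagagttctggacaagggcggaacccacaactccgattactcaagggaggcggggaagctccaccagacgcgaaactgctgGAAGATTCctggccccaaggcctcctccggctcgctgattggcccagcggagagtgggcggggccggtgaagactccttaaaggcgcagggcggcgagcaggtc
Hspa1b: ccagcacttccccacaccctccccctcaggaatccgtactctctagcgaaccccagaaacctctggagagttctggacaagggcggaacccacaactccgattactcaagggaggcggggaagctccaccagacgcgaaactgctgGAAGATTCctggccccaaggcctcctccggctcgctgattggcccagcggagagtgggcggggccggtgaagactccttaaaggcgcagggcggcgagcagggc
GAANNTTC, which reads the same on both strands, was found in the 300-base window (250 before to 50 after the start) of 13 of the 53 members with a RefSeq promoter, or 24.5%, against 7.27% of all 18303 promoters. The converse pair TTCNNGAA, also its own reverse complement, was found in 4 members (7.55%) against 8.10% of all promoters. A run of 3 units (GAANNTTCNNGAA or TTCNNGAANNTTC, on either strand, each of which holds both pairs) was found in 3 members (5.66%) against 0.557% of all promoters. These are letter matches and not shown to be sites. The windows with 3 units belong to Hsph1, Hspe1 and Dnajb6, and are given with that of Dnaja1, whose single pair begins at position -124. Each line is 30 bases, with the match in capitals: Hsph1 at chr5:149636287-149636316 (minus strand, match at position 36, after the start), Hspe1 at chr1:55088053-55088082 (plus strand, position -89), Dnajb6 at chr5:29735843-29735872 (plus strand, position -46) and Dnaja1 at chr4:40722333-40722362 (plus strand).
Hsph1: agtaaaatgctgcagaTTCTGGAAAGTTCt
Hspe1: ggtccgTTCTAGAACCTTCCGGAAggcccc
Dnajb6: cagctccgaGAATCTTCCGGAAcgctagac
Dnaja1: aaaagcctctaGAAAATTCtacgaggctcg
Of the 13 members with GAANNTTC 11 were tested, and in WT cells given Jurkat cells for 4 h 10 of them rose and 1, Hspb6, fell, while in KO cells 8 rose, 1 fell and 2 were not called. Of the 38 tested members with a promoter and without it, 17 rose and 13 fell in WT and 16 rose and 12 fell in KO cells. Over all genes tested 38.9% rose and 40.6% fell in WT, and 37.5% and 41.0% in KO cells. Those shares were not split by the motif. Hspa1a and Hspa1b, nearly identical before their starts, are counted separately among the 10. The WT calls of Hspb1, Hspb8 and Hspe1 did not hold whichever library was left out. Whether the rises go with the motif was not tested. Of the genes shown, Hsph1, Dnajb6 and Dnaja1 rose by over 1 on the log2 scale in WT cells, whereas Hspe1 rose by 0.17. Dnajb1 and Dnaja2, which rose too, hold none of the 4 motifs in their windows.

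**Figure D1:**
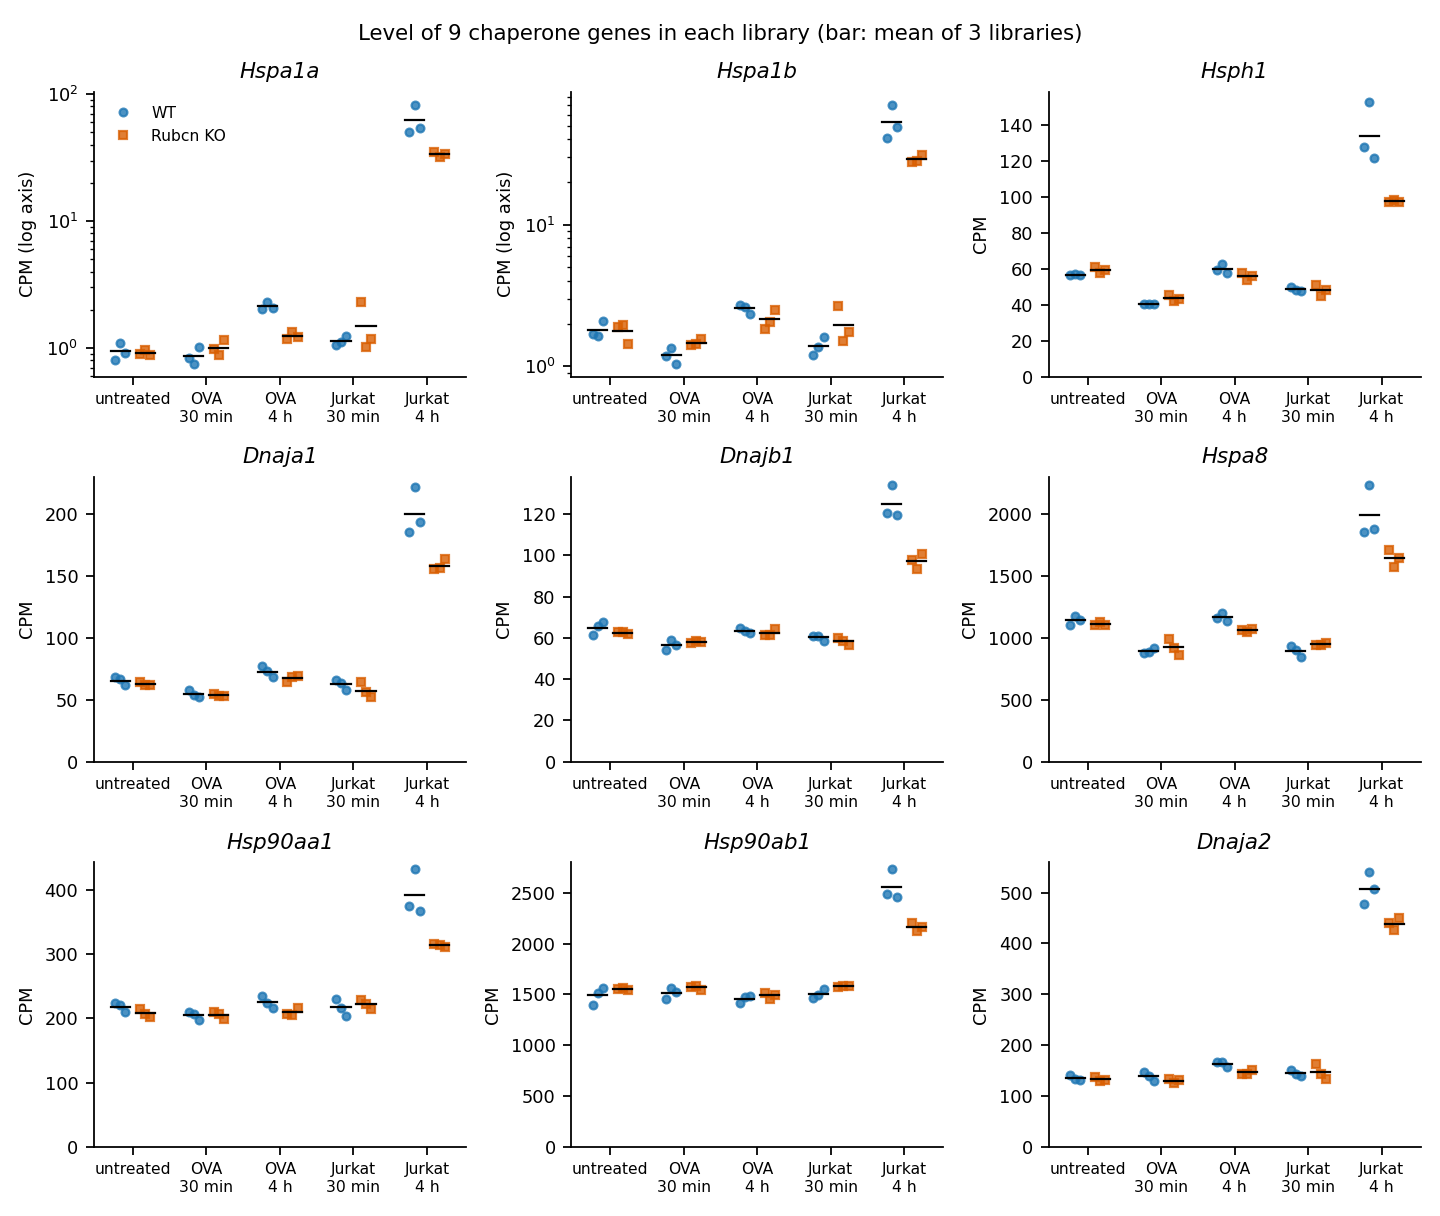
Level of 9 chaperone genes in each of the 30 libraries, in CPM, by condition, with WT as circles, Rubcn KO as squares and the mean of 3 libraries as a bar; Hspa1a and Hspa1b are on a log axis. All 9 genes are highest after 4 h with Jurkat cells, where every WT library lies above every KO library, and Hsph1 and Hspa8 dip after 30 min of either treatment.

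The nucleotide exchange factor and the constitutive HSP70 moved with the inducible pair. Hsph1 (HSP110) measured 56.5, 57.4 and 56.8 CPM in untreated WT libraries and 128, 153 and 122 CPM after 4 h with Jurkat cells, a rise of 1.24 ± 0.06 (FDR = 2.7e-18, edgeR). In KO cells it went from 61.2, 58.0 and 59.6 CPM to 97.3, 98.3 and 97.3 CPM, a rise of 0.71 ± 0.06 (FDR = 1.4e-12). Hspa8 went from 1107, 1174 and 1144 CPM to 1860.1, 2234 and 1879 CPM in WT and from 1102, 1126 and 1105 CPM to 1710.4, 1572 and 1649 CPM in KO cells. For both genes the untreated and Jurkat libraries did not overlap in either genotype. The log2 rises of Hspa8 were 0.80 ± 0.05 in WT and 0.57 ± 0.05 in KO cells, and only Hsp90ab1 gained more CPM among the members in WT cells. The testis-enriched HSP70 gene Hspa2 also rose, by 0.86 ± 0.07 in WT and 0.60 ± 0.07 in KO cells, as did Hspa4 and Hspa1l on TMM-scaled counts. Raw counts of Hspa4 in WT libraries were 11443, 11786 and 12293 untreated and 11348, 9967 and 9798 with Jurkat cells. Those of Hspa1l were 119, 149 and 143, then 134, 140 and 132. Library totals of the 2 groups were similar, so both rises in WT cells rest on the TMM factors. Hspa4l, an HSP110-related gene, did not pass the test in WT cells (0.10 ± 0.06) and fell in KO cells (-0.28 ± 0.07). Hspa14, a ribosome-associated HSP70, fell in both (-0.60 ± 0.04 in WT, -0.45 ± 0.04 in KO), from 73.0, 71.6 and 73.1 CPM to 47.7, 49.8 and 46.6 CPM in WT libraries.

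Among the class A (DNAJA) and class B (DNAJB) J-domain genes, most class A genes and 5 class B genes rose. Of the 4 DNAJA genes 3 rose in each genotype, and of the 9 tested DNAJB genes 5 rose and 3 fell in WT cells, with Dnajb4 below 0 by library totals. The shares over all genes were 38.9% higher and 40.6% lower in WT, and 37.5% and 41.0% in KO cells. Dnaja2 measured 142, 133 and 132 CPM in untreated WT libraries and 477, 539.7 and 506 CPM after 4 h with Jurkat cells, and its rises were 1.90 ± 0.06 in WT and 1.73 ± 0.06 in KO cells. Dnaja1, the class A partner that is itself heat inducible, went from 68.1, 66.4 and 61.7 CPM to 185, 221 and 193 CPM in WT libraries (1.61 ± 0.06) and from 64.3, 62.0 and 61.6 CPM to 155, 156 and 163 CPM in KO libraries (1.33 ± 0.06). Neither gene's Jurkat libraries overlapped the untreated ones. Dnajb1 (HSP40), the classic inducible partner, went from 61.5, 66.0 and 67.7 CPM to 121, 134 and 119.6 CPM in WT libraries, a rise of 0.94 ± 0.04, and to 97.7, 93.7 and 101 CPM in KO libraries, a rise of 0.64 ± 0.04. Dnajb6, which suppresses aggregation of polyglutamine proteins, rose by 1.05 ± 0.05 in WT and 1.08 ± 0.05 in KO cells, the KO value being the higher. Dnajb2 rose by 0.77 ± 0.06 and 0.71 ± 0.05. The fallers were Dnajb13, a sperm flagellar gene (-0.82 ± 0.19 in WT), Dnajb14, a membrane J-protein (-0.55 ± 0.05), and the scarce Dnajb7 (-0.96 ± 0.43), which did not pass in KO cells.

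The DNAJC genes, whose J domains serve many different compartments, split evenly: 11 of 24 tested rose and 11 fell in WT cells, and 8 rose and 9 fell in KO cells. Over all genes 38.9% rose and 40.6% fell in WT, and 37.5% and 41.0% in KO cells, so this split is near that of all genes. The largest fall of any member was that of Dnajc28, a poorly characterised J-protein. It measured 11.9, 13.4 and 12.6 CPM in untreated WT libraries, 8.21, 8.92 and 7.17 CPM after 30 min and 1.495, 0.777 and 1.29 CPM after 4 h with Jurkat cells. KO libraries measured 14.2, 13.2 and 12.8, then 9.21, 8.76 and 10.4, then 1.26, 1.88 and 1.59 CPM. The 3 sets did not overlap in either genotype, and the falls at 4 h were -3.39 ± 0.14 in WT and -3.08 ± 0.13 in KO cells. Dnajc4, Dnajc25, Dnajc9 (a histone chaperone) and Dnajc16 fell as well, with values of -0.77, -0.72, -0.56 and -0.40 in WT cells. In the other direction, Dnajc13, an endosomal J-protein of membrane trafficking, went from 177, 169.8 and 182 CPM to 358, 424 and 345 CPM in WT libraries (1.09 ± 0.06) and rose by 0.84 ± 0.06 in KO cells. Dnajc7 rose by 0.54 ± 0.04 and 0.42 ± 0.04, and Dnajc27 by 0.59 ± 0.07 and 0.55 ± 0.07. Of all tested members, 10 were not called in WT cells at this time: Dnaja3, Dnajb12, Dnajc12, Dnajc14, Hspa4l, Hspa12a, Hspa12b, Hspa13, Hspb7 and Hspb9. Dnajc12, Dnajc14, Hspa12a, Hspa12b and Hspb7 were called in none of the 8 treatment comparisons.

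Both HSP90 genes rose in both genotypes. Hsp90aa1, the inducible form, went from 224, 221 and 209 CPM to 375, 432 and 368 CPM in WT libraries and from 215, 206 and 203 CPM to 315, 314 and 312 CPM in KO libraries, with rises of 0.85 ± 0.05 and 0.59 ± 0.05. Hsp90ab1 went from 1391, 1516 and 1561 CPM to 2488, 2738 and 2461 CPM in WT libraries and from 1556, 1563 and 1546 CPM to 2201, 2124 and 2161 CPM in KO libraries, with rises of 0.78 ± 0.04 and 0.48 ± 0.04. No Jurkat library of either gene overlapped its untreated group. The mitochondrial chaperones moved less: Hspd1 (HSP60) rose by 0.45 ± 0.04 in WT and 0.23 ± 0.04 in KO cells, Hspa9 (mortalin) by 0.34 ± 0.03 and 0.17 ± 0.03, and Hspe1 by 0.17 ± 0.07 in WT cells, with 0.05 ± 0.07 in KO cells not called, and by library totals Hspa9 and Hspe1 lay below 0 in both genotypes and Hspd1 in KO cells. Hspd1 and Hspe1 overlap on opposite strands, so their reads cannot be told apart where counting ignored strand. Small heat shock proteins were scarce and did not move together. Hspb1 rose by 0.65 ± 0.23 in WT and 0.53 ± 0.20 in KO cells at levels of 0.779 to 2.62 CPM over all 30 libraries, while Hspb6, a cytoskeleton-linked member, fell (-0.67 and -0.37) and so did Hspb11 (-0.45 and -0.59).

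**Figure D2:**
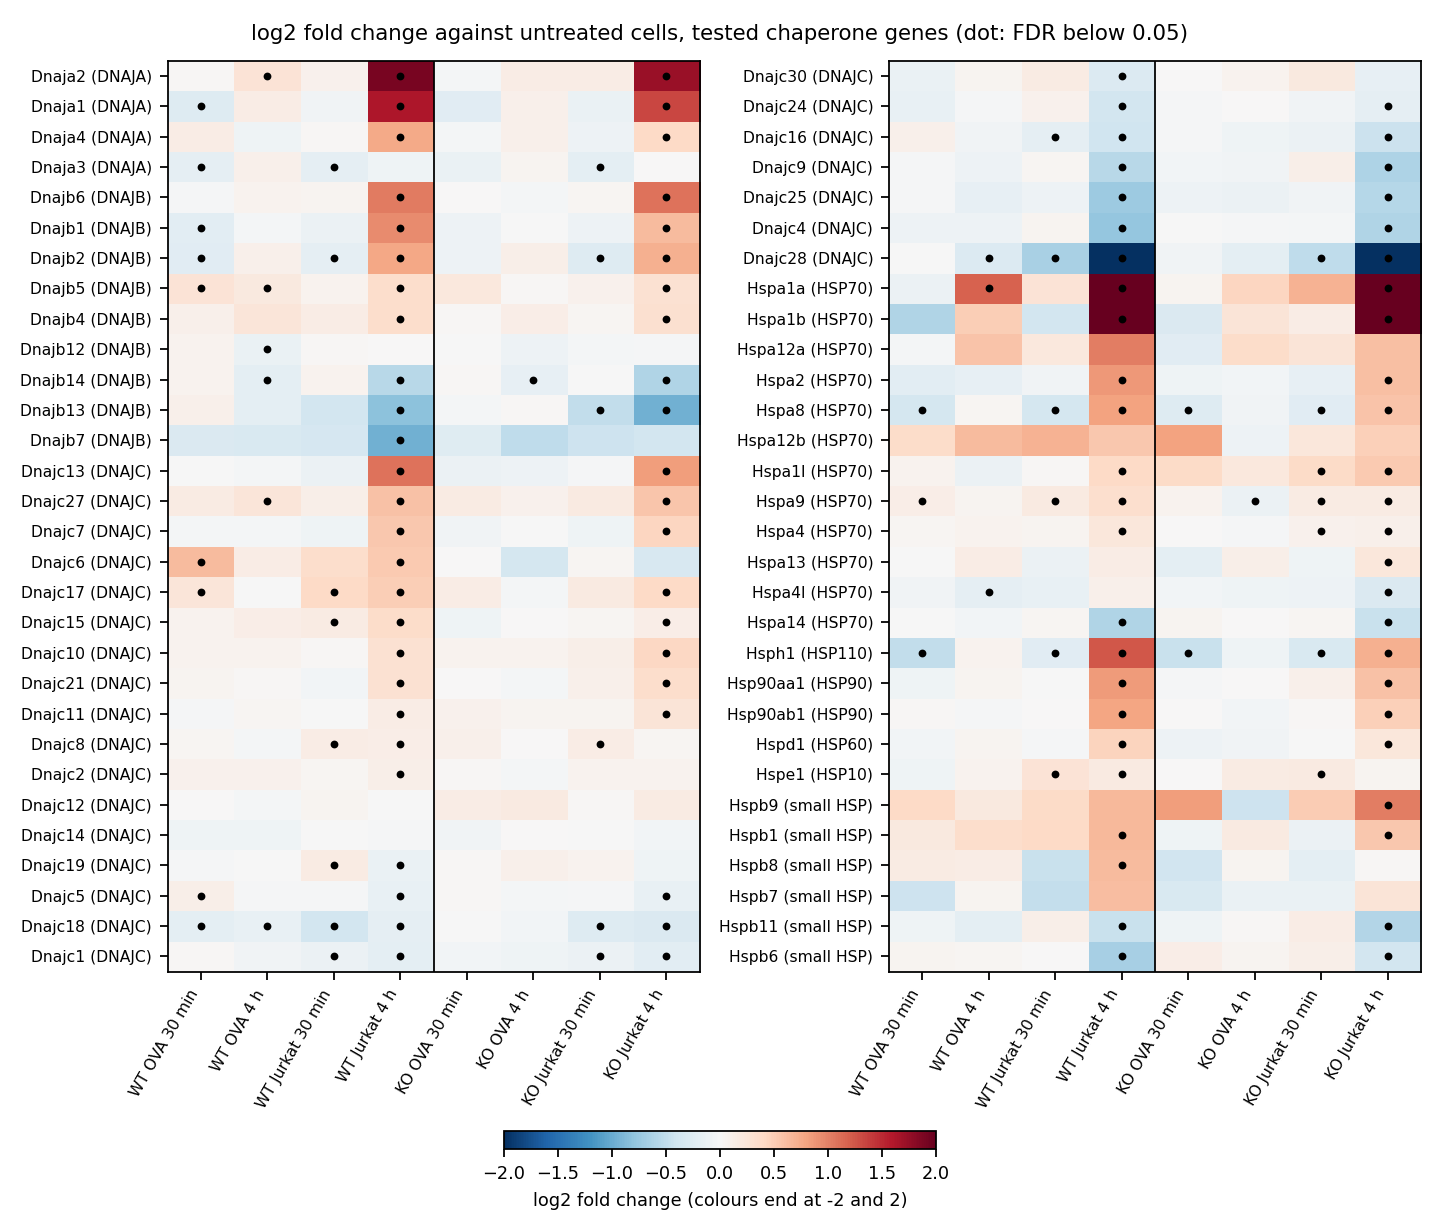
Log2 fold change against untreated cells of the same genotype for the 60 tested members (rows, by family) in 8 comparisons (columns, WT then KO), red for higher and blue for lower, with colours ending at -2 and 2 and a dot where FDR is under 0.05. The 4 h Jurkat columns hold 50 dots in WT and 45 in KO cells, and the OVA columns hold 12 and 9 in WT and 2 and 2 in KO cells.

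The size of these rises rests on how libraries are scaled. TMM factors were 0.765 to 0.842 in the 4 h Jurkat libraries and 1.03 to 1.07 in all others. Scaled by library totals instead, the median of all genes moved from -0.02 to -0.42 in WT cells and every change is relative to that shift. Hspa1a, Hspa1b, Hsph1, Dnaja1, Dnaja2, Dnajb1, Hspa8, Hsp90aa1 and Hsp90ab1 kept their direction and their call under every scaling tried, whereas others, such as Dnajb4, Hspa9 and Hspe1, had values below 0 by library totals. In bulk RNA, fewer cells of a type and less RNA per cell cannot be told apart.

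Marker genes of T cells, the lineage of Jurkat, rose in the same libraries. Of 28 T-lineage marker genes, 15 lay under 1 CPM in untreated cells, and their summed level was 3.63 ± 0.0601 CPM (SD, n = 3) in untreated WT cells, 41.7 ± 0.998 CPM after 30 min and 108.7 ± 16.3 CPM after 4 h with Jurkat cells. In KO cells the sums were 4.38 ± 0.787, 26.5 ± 5.79 and 74.6 ± 9.79 CPM. None of the 15 was at 0 in a Jurkat group, and 23 of the 27 tested T-lineage genes rose at 4 h in WT cells. Lef1 and Zap70 were the highest of the 15, at 38.4 and 35.2 CPM in WT cells after 4 h, while Cd3d, a defining T-cell gene, went from 0.112 to 0.0387 CPM. At 30 min, with the WT sum already 11.5 times its untreated value, Hspa1a stood at 1.05, 1.11 and 1.24 CPM, overlapping untreated cells, and Dnaja2 at 150.04, 144 and 139.8 CPM. In KO cells at 30 min, with the sum 6.05 times its untreated value, Hspa1a stood at 2.30, 1.02 and 1.17 CPM, all above its untreated KO libraries, with a change of 0.70 ± 0.28 that was not called (FDR = 0.088). The part of RNA from Jurkat cells in the rises at 4 h was not tested.

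**Figure D3:**
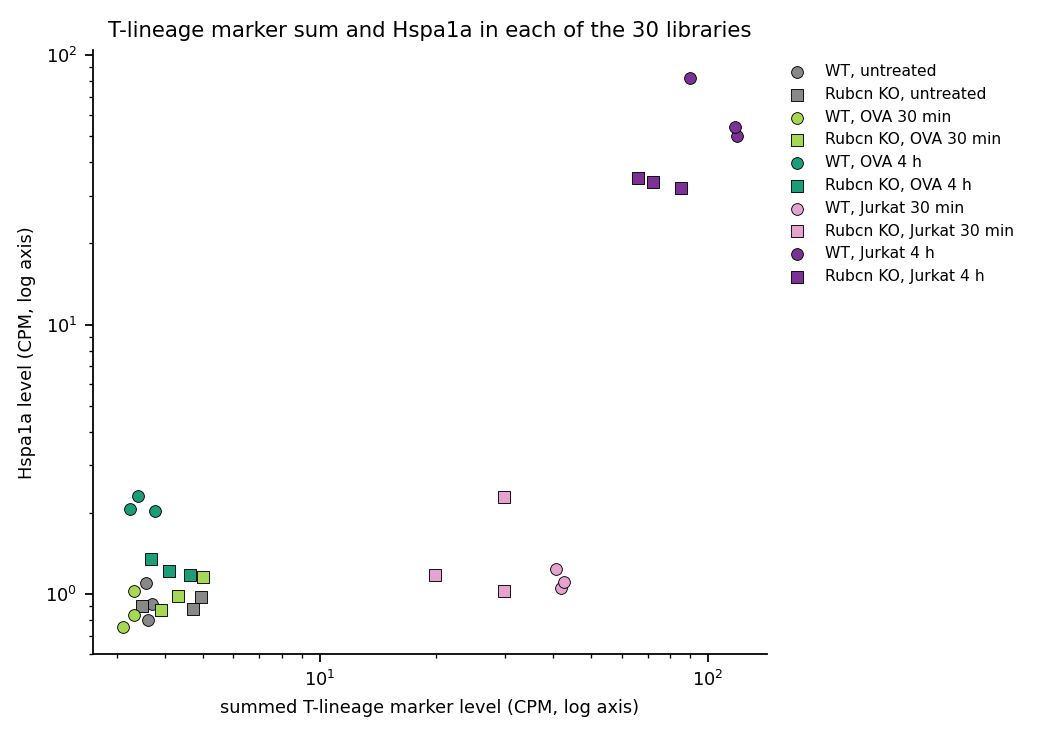
Summed level of 15 T-lineage marker genes (x axis, CPM, log axis) and level of Hspa1a (y axis, CPM, log axis) in each of the 30 libraries, WT as circles and Rubcn KO as squares, coloured by condition. The 30 min Jurkat libraries have T-lineage sums of 19.8 to 42.6 CPM with Hspa1a at 1.02 to 2.30 CPM, and the 4 h Jurkat libraries sums of 66.3 to 118.7 CPM with Hspa1a at 32.1 to 82.6 CPM.

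At 30 min of OVA several genes of the HSP70 cycle fell. After 30 min of OVA in WT cells, 5 members rose and 7 fell (8.33% and 11.7% of those tested), against 5.51% and 5.15% of all genes. Of the called members Hsph1 had the largest fall, from 56.5, 57.4 and 56.8 CPM to 40.2, 40.7 and 40.5 CPM, a change of -0.49 ± 0.06 (FDR = 1.1e-06, edgeR). Hspa8 fell to 875, 883 and 919.6 CPM (-0.36 ± 0.05, FDR = 4.7e-05), and Dnaja1 and Dnajb1 fell with values of -0.26 ± 0.07 and -0.20 ± 0.04. None of these 4 genes overlapped its untreated libraries. Hspa1b had a value further below 0, with 1.19, 1.35 and 1.04 CPM and no overlap, but was not called (-0.60 ± 0.25, FDR = 0.14). Dnajb2, Dnajc18 and the mitochondrial J-protein Dnaja3 completed the fallers. Those that rose were Dnajc6 (auxilin, 0.64), Dnajb5 (0.28), Dnajc17 (0.25), Hspa9 (0.14) and Dnajc5 (0.11). Of the 12 calls 5 held whichever library was left out: Hsph1, Hspa8, Dnaja1, Dnajb1 and Dnajb5.

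KO cells given OVA for 30 min had 0 members higher and 2 lower (3.33%), against 1.88% of all genes in each direction. Library 3 of that group was shallow, with 9.73 M counts against 46.4 M and 42.8 M in libraries 1 and 2. Its part in the lower number of calls than in WT cells was not tested. DESeq2 gave 0 higher and 3 lower, and 15 members had an unadjusted p under 0.05 in edgeR. Both calls were shared with WT: Hsph1 at 45.7, 42.2 and 43.0 CPM (-0.45 ± 0.06) and Hspa8 at 989, 919 and 866 CPM (-0.26 ± 0.05). No interaction of genotype and 30 min of OVA was called for any member by edgeR or by DESeq2, against 0.0% of all genes and with 2 members at an unadjusted p under 0.05.

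Both genes fell with Jurkat cells at 30 min too. In WT cells 6 members rose and 8 fell, against 14.2% and 14.5% of all genes. In KO cells 5 rose and 8 fell (2 and 8 by library totals), against 8.72% and 8.26%. By library totals 1116 of all genes rose and 1399 fell in KO cells. Hspa8 fell with a change of -0.35 ± 0.05 in WT and -0.23 ± 0.05 in KO cells, and Hsph1 with -0.23 ± 0.06 and -0.31 ± 0.06. The calls shared by both genotypes numbered 10, in the same direction each: Hspa8, Hsph1, Dnajc28, Dnajc18, Dnajc1, Dnajb2 and Dnaja3 lower, and Hspa9, Hspe1 and Dnajc8 higher. Whichever library was left out, 9 of the 14 WT and 7 of the 13 KO calls held, and of the shared ones Dnaja3 and Hspe1 were lost in KO, Dnajb2 in WT and Dnajc1 in both. Dnajc28 had the largest fall of those 10, -0.65 ± 0.10 in WT and -0.50 ± 0.10 in KO cells. The OVA and Jurkat comparisons of a genotype share its 3 untreated libraries. Without those libraries, Jurkat cells against OVA at 30 min (genotypes averaged) gave 12 members higher and 7 lower, against 15.5% and 14.4% of all genes. There Hsph1 was higher with Jurkat cells by 0.20, Dnaja1 by 0.15 and Hspe1 by 0.27, Dnajc28 lower (-0.53), and Hspa8 not called (0.02).

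At 4 h of OVA neither Hsph1 nor Hspa8 was called lower, and Hspa1a rose. In WT cells 4 members rose and 5 fell (6.67% and 8.33%), against 11.9% and 11.7% of all genes, and so below the shares of all genes. Hspa1a measured 2.03, 2.31 and 2.07 CPM against 0.801, 1.10 and 0.918 CPM untreated, with no overlap and a rise of 1.18 ± 0.26 (FDR = 0.0012, edgeR). Its mean count there was 103 per library. Hspa1b measured 2.71, 2.63 and 2.35 CPM and did not pass the test (FDR = 0.1). Dnaja2, Dnajc27 and Dnajb5 rose with values of 0.27, 0.24 and 0.19, and Dnajc28, Dnajb14, Hspa4l, Dnajc18 and Dnajb12 fell. Of these 9 calls 3 held whichever library was left out: Hspa1a, Dnaja2 and Dnajb14. In KO cells 0 members rose and 2 fell, against 5.94% and 5.69% of all genes: Dnajb14 (-0.17) and Hspa9 (-0.12). DESeq2 also called 0 higher and 2 lower, and 8 members had an unadjusted p under 0.05 in edgeR. Hspa1a in KO cells measured 1.18, 1.35 and 1.22 CPM, all above its untreated KO libraries, with a change of 0.43 ± 0.29 that was not called (FDR = 0.4).

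Comparing 4 h with 30 min directly, without the untreated libraries and with genotypes averaged, gave 12 members higher and 10 lower under OVA, against 17.2% and 17.0% of all genes. Hspa1a (0.84), Hspa1b (0.83), Hsph1 (0.46), Dnaja1 (0.37) and Hspa8 (0.29) led the rises. Under Jurkat cells 32 members were higher and 17 lower, against 40.2% and 43.7% of all genes, led by Hspa1a (5.13), Hspa1b (4.56), Dnaja2 (1.70), Dnaja1 (1.57) and Hsph1 (1.24). Jurkat cells against OVA at 4 h gave 30 higher and 17 lower, against 39.4% and 43.2%. By library totals these last 2 splits became 14 higher and 32 lower each. Over all genes they became 3704 higher and 9183 lower for 4 h against 30 min of Jurkat cells. For Jurkat cells against OVA at 4 h they became 3502 higher and 9301 lower.

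Few chaperone genes differed between Rubcn KO and WT in 4 of the 5 conditions. In untreated cells 4 members were higher and 1 lower in KO, against 6.0% and 3.97% of all genes. With 30 min of OVA 2 were higher and 3 lower (6.25% and 6.13% of all genes), with 4 h of OVA 1 higher and 3 lower (6.22% and 6.35%; 2 higher and 1 lower by library totals, 1 and 7 with DESeq2), and with 30 min of Jurkat cells 1 higher and 4 lower (5.58% and 3.67%). Such counts are near the background shares, since 1 member is 1.67% of those tested. At 4 h of OVA all genes gave 1330 higher and 733 lower by library totals, and 812 and 1023 with DESeq2. Of the member calls in these 4 conditions 2, 0, 0 and 2, in that order, held whichever library was left out. Over the 5 conditions 29 members were called at least once, 31 never, and 0 in all 5, so 48.3% were called at least once against 37.1% of all genes.

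After 4 h of Jurkat cells the KO libraries stood apart, with 1 member higher and 17 lower in KO than in WT (1.67% and 28.3%, against 9.37% and 13.5% of all genes). The median of the members was -0.03, against -0.01 of all genes, so the lower calls came from a subset of the list. Hspa1a differed by -0.89 ± 0.12 (FDR = 9.6e-06, edgeR) and Hspa1b by -0.88 ± 0.13, which are KO levels of 0.541 and 0.544 times WT. WT library 2 was the highest of the 3 WT libraries for 20 of the 33 members that rose. Without it Hspa1a differed by -0.63, and 15 members were lower and 0 higher. Whichever library was left out, 14 of the 18 calls held.

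By family, the 17 lower genes were 6 of the 12 HSP70 genes (Hspa4 and Hspa4l among them), Hsph1, 7 of the 37 tested J-domain genes, both HSP90 genes and Hspd1. Hsph1 differed by -0.46 ± 0.05, Hspa8 by -0.28 ± 0.05, Hspa2 by -0.28 ± 0.07, Hspa4l by -0.36 ± 0.07 and Hspa4 by -0.10 ± 0.03. The J-domain genes lower in KO were Dnajb1 (-0.36 ± 0.04), Dnaja1 (-0.34 ± 0.06), Dnajc13 (-0.33 ± 0.06), Dnajc7 (-0.25 ± 0.04), Dnaja2 (-0.21 ± 0.05), Dnajc15 and Dnajc8. Both HSP90 genes were lower, Hsp90aa1 with -0.32 and Hsp90ab1 with -0.25, as was Hspd1 (-0.14). For Hsph1, Hspa8, Dnaja1, Dnaja2, Dnajb1, Dnajc13, Hsp90aa1 and Hsp90ab1 the 3 KO libraries lay below the 3 WT libraries without overlap. Dnajb6, with a WT rise of 1.05, was not called (-0.03 ± 0.05, FDR = 0.71). By library totals the split was 10 higher and 12 lower, and Hspa1a, Hspa1b, Hsph1, Hspa8, Hsp90aa1 and Dnaja1 stayed lower. Over all genes that scaling gave 3000 higher and 1013 lower, against 1388 and 2004 with TMM factors.

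The T-lineage marker sum was lower in KO as well, 0.686 times the WT sum after 4 h and 0.636 times after 30 min of Jurkat cells. At both times the 3 KO sums lay below the 3 WT sums, and each two-sided exact permutation test gave p = 0.1, its lower limit for groups of 3. Within the WT group the library with the lowest T-lineage sum (89.9 CPM, library 2) had the highest Hspa1a level (82.6 CPM). Markers of plasmacytoid dendritic cells were also lower in KO at 4 h of Jurkat cells (0.812 times), and those of basophils and mast cells were higher (1.596 times, or 3.13 times without Kit). Those of dendritic cells as a class and of monocytes and macrophages stood at 0.960 and 1.03 times the WT sum, both overlapping. Most of the dendritic cell sum came from Cd74, H2-Aa and H2-Ab1, at 17067, 10491 and 8505 CPM in WT. Single markers in these 2 lists differed more, in both directions. Clec9a stood at 209 CPM in WT and 146 in KO, Ly6c2 at 182 and 76.3, and Fcgr1 at 124 and 80.4. Itgam stood at 264 and 336, and Lyz2 at 1812 and 2069. The part of these cell types in the chaperone difference was not tested.

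**Figure D4:**
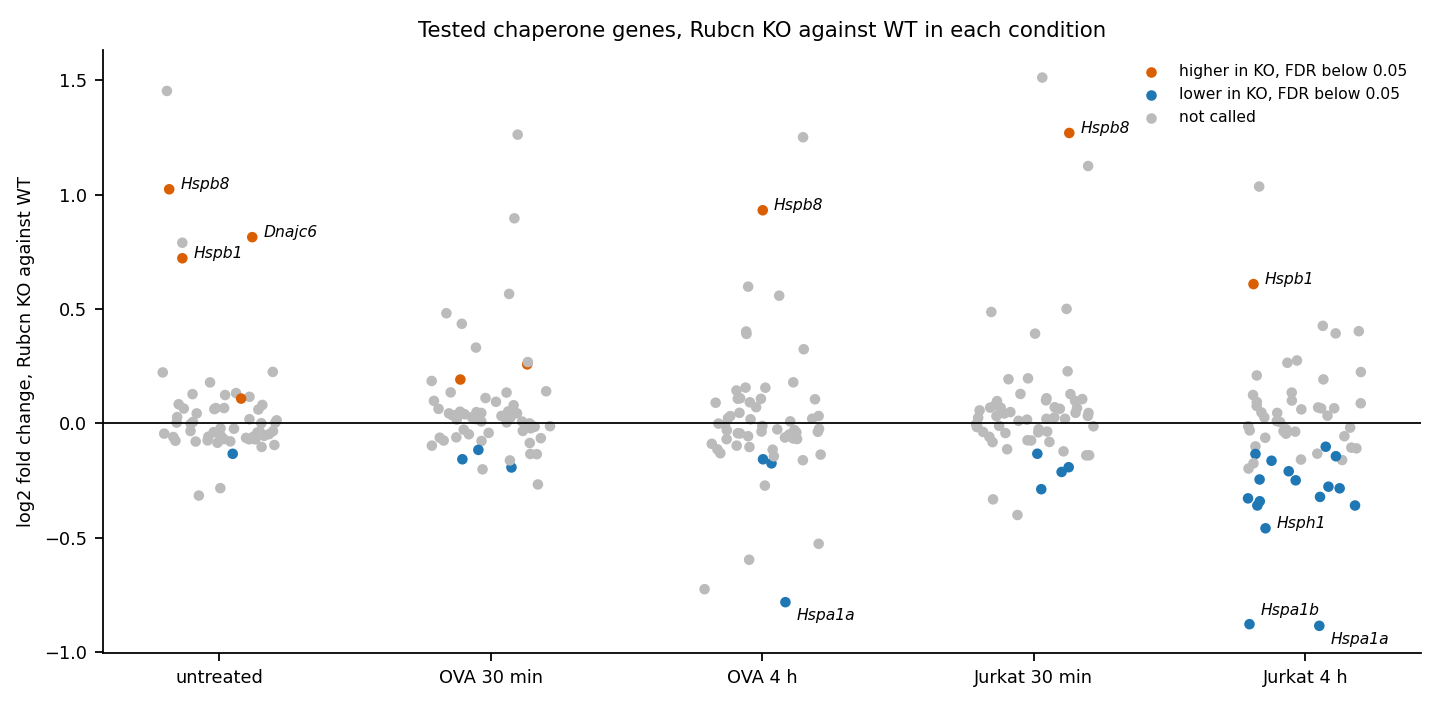
Log2 fold change of Rubcn KO against WT for the 60 tested members (points) in each of 5 conditions, orange for higher and blue for lower in KO at FDR under 0.05, grey for members not called, with names for called members beyond 0.4 in either direction. Blue points number 1, 3, 3, 4 and 17 from left to right.

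An interaction term tested the log2 response in KO minus that in WT. For 4 h of Jurkat cells 7 members had a value below 0 that was called and 0 one above 0 (11.7% and 0%, against 2.55% and 1.72% of all genes). DESeq2 gave 10 lower and 0 higher, library totals gave 4 lower and 1 higher, and 21 members had an unadjusted p under 0.05 in edgeR. Over all genes DESeq2 gave 497 lower and 292 higher, and library totals 200 lower and 661 higher. On TMM-scaled counts a value below 0 was a smaller rise in KO, except for Hspa4l, which fell in KO cells and was not called in WT cells. The 7 were Hsph1 (-0.53 ± 0.08, FDR = 2.5e-04), Hspa4l (-0.38 ± 0.09, FDR = 0.019), Hsp90ab1 (-0.31 ± 0.06, FDR = 0.0023), Dnajb1 (-0.30 ± 0.06), Hsp90aa1 (-0.25 ± 0.07), Hspd1 (-0.22 ± 0.05) and Hspa9 (-0.17 ± 0.05). Hspa1a and Hspa1b had interaction values further below 0, -0.85 ± 0.33 and -0.84 ± 0.27, but did not pass (FDR = 0.15 and 0.069). In a fit of the 4 compared groups alone 1 member was called. Without WT library 2 of the 4 h Jurkat group 5 were called, and Hspa4l and Hsp90aa1 were not. Only Hsph1, Hsp90ab1 and Dnajb1 kept their calls whichever library was left out. For OVA at 4 h and for Jurkat cells at 30 min no member was called by edgeR or by DESeq2, against 0.0405% and 0.00675% of all genes lower and 0.0% higher, with 5 and 2 members at an unadjusted p under 0.05.

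**Figure D5:**
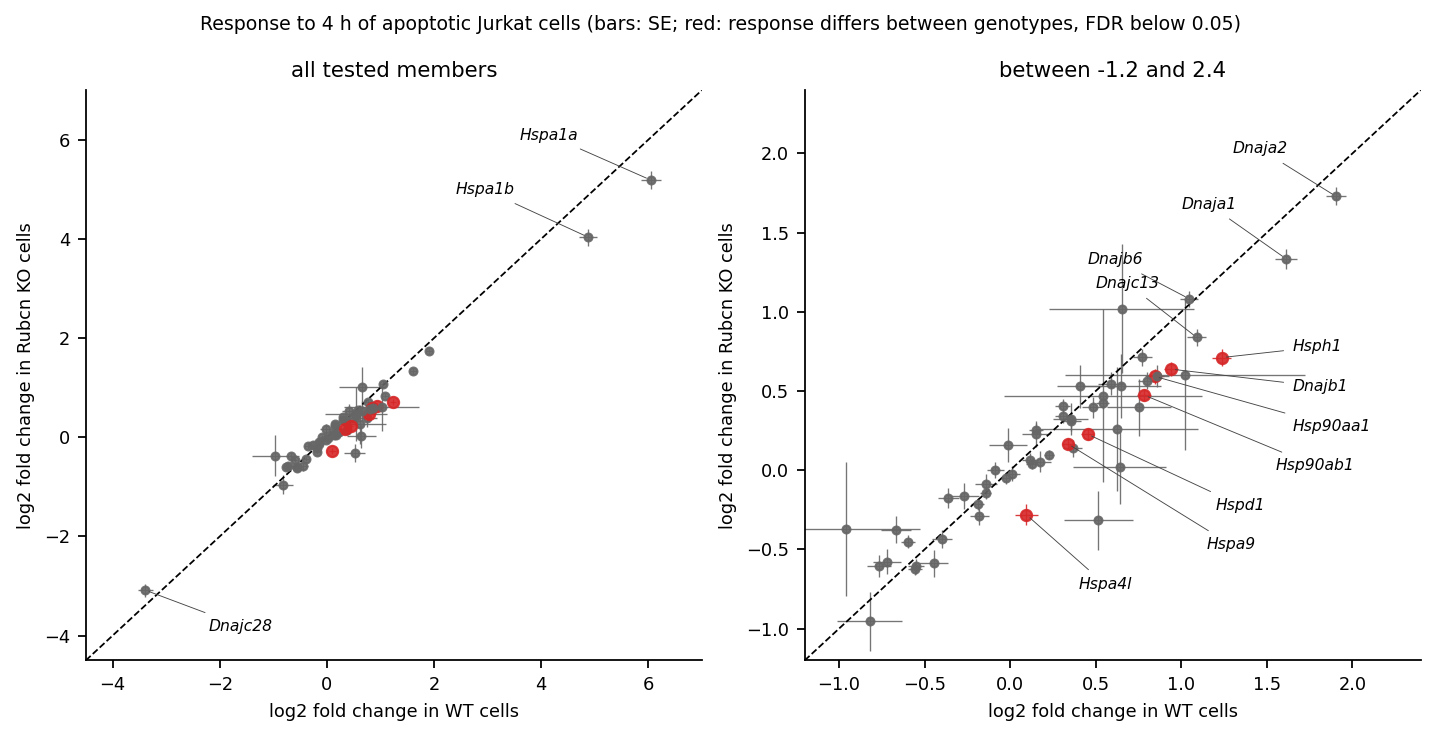
Log2 fold change after 4 h of Jurkat cells in WT (x axis) and Rubcn KO cells (y axis) for the 60 tested members, with SE bars, the line of equal response dashed, and an enlarged view at the right. Red points are the 7 members whose response differed between genotypes at FDR under 0.05, all below the line, and Dnajb6 lies on the line at 1.05 in WT and 1.08 in KO cells.

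Dnajc7, Hspb8, Hspb1, Hspa1a and Dnajc13 were called between genotypes in more than 1 condition, Dnajc13 with -0.19 after 30 min of OVA besides its call with Jurkat cells. Dnajc7 was lower in KO in 4 of the 5 conditions, with values of -0.13 untreated, -0.16 and -0.13 at 30 min of OVA and Jurkat cells, and -0.25 at 4 h of Jurkat cells. Of these, the call at 4 h of Jurkat cells held whichever library was left out, and the others did not. Untreated libraries measured 298, 319 and 309 CPM in WT and 273, 286 and 285 CPM in KO cells, without overlap. The small heat shock protein Hspb8, a partner of the co-chaperone BAG3, was higher in KO in 3 conditions: untreated (1.02 ± 0.25), 4 h of OVA (0.93 ± 0.24) and 30 min of Jurkat cells (1.27 ± 0.27). It is scarce, with 0.445, 0.582 and 0.408 CPM in untreated WT and 0.987, 1.08 and 0.862 CPM in untreated KO libraries, or 22.3 and 47.3 counts on average, and its call at 4 h of OVA was lost without library 1 of either genotype (0.79 without the WT and 0.84 without the KO library). Hspb1 was higher in KO when untreated (0.72 ± 0.22) and at 4 h of Jurkat cells (0.61 ± 0.21). Leaving out any 1 library other than KO library 3 ended the untreated Hspb1 call (values from 0.52 to 0.81), and leaving out library 1 or 2 of either genotype ended that at 4 h of Jurkat cells (0.50 to 0.59). The summed level of 8 basophil and mast cell markers was 1.27 to 1.596 times the WT sum across the 5 conditions. Kit makes up most of that sum, with 130.0 CPM in WT and 137 CPM in KO cells when untreated, and the other 7 markers were 2.51 to 3.13 times the WT sum (75.1 against 25.1 CPM untreated), without overlap in any condition. That of 12 stromal and endothelial markers was 1.25 to 1.39 times the WT sum, except at 4 h of Jurkat cells, where it was 0.987 times with Kdr at 1074 CPM in WT and 781 CPM in KO cells. Without Kdr the other 11 were 1.27 to 1.41 times the WT sum in all 5 conditions. Both genes were taken out after seeing the data. Their part in the small heat shock protein levels was not tested.

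Hspa1a was also lower in KO at 4 h of OVA, with 2.03, 2.31 and 2.07 CPM in WT and 1.18, 1.35 and 1.22 CPM in KO libraries. The groups did not overlap, and the difference was -0.78 ± 0.25 (FDR = 0.035, edgeR). Leaving out any 1 of the 6 libraries ended the call, with FDR between 0.065 and 0.14 and values between -0.84 and -0.72. In untreated cells the gene was not called (-0.03 ± 0.31, FDR = 0.97). In the 30 min Jurkat KO group library 1 stood at 2.30 CPM against 1.02 and 1.17 CPM in the other 2, for Hspa1a, and at 2.64 against 1.51 and 1.76 CPM for Hspa1b.

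The rest of the pathway was read from lists of HSF factors, co-chaperones and other folding factors. Hsf1, the main regulator, stood at 54.5 ± 3.53 CPM in untreated WT and 51.3 ± 3.62 CPM after 4 h of Jurkat cells and was not called, while Hsf2 rose by 0.30 and 0.26 in WT and KO cells. Among 14 HSP70 co-chaperones, 8 rose and 5 fell in WT and 8 rose and 6 fell in KO cells at that time. The shares to read these and the following counts against are 38.9% higher and 40.6% lower over all genes in WT and 37.5% and 41.0% in KO cells. Bag3, an HSF1 target that links HSP70 to small heat shock proteins, rose by 1.18 and 0.92, Bag1 by 0.92 and 0.67, and Stip1 (HOP), which bridges HSP70 and HSP90, by 0.85 and 0.69, whereas Bag4 fell (-1.28 and -1.21). Of 14 HSP90 co-chaperones 7 rose and 4 fell in WT cells, the smallest p belonging to Cdc37 (0.58), Unc45a (0.74) and Sugt1 (0.77). Of 17 other folding factors 13 rose and 0 fell in WT cells, with Cct3, a subunit of the cytosolic TRiC chamber, at 2.07 in WT and 1.92 in KO cells against 0.60 for Cct7 and 0.63 for Cct8 in WT cells. Of the 5 endoplasmic reticulum genes left out by the rule, 4 rose in each genotype, among them Hspa5 (BiP), whose KO rise was 1.29. Genes outside the members were fitted with TMM factors alone, so whether library totals would turn these directions as they turned the split of the members was not tested.

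The heat-inducible core, 13 members listed from general knowledge of the heat shock response but with earlier results of these data known, mostly rose at 4 h of Jurkat cells: 12 of 13 in WT (median 0.80) and 11 higher with 1 lower in KO cells (median 0.57), beside medians of -0.02 and -0.03 over all genes. By library totals 8 rose and 2 fell in WT and 8 rose and 3 fell in KO cells. Over all genes that scaling gave 3570 higher and 8757 lower in WT and 3532 and 8584 in KO cells. In KO against WT at that time 10 of the 13 were lower and 1 higher (9 and 2 by library totals). Their median was -0.32 beside -0.01 over all genes. On TMM-scaled counts 13.5% of all genes were lower and 9.37% higher, and by library totals 1013 were lower and 3000 higher. Chosen in that way, the list is not independent evidence of its direction. The list also holds Hspa8, described above as constitutive, so it is not made of inducible genes alone. The HSP90 co-chaperones Ahsa1 and Ahsa2, which stimulate the HSP90 ATPase, were lower in KO at 4 h of Jurkat cells (-0.25 and -0.24), as were Stip1 (-0.15), Bag1 (-0.15) and 8 of the 17 other folding factors, while Bag3 was not called (-0.06, FDR = 0.48). The shares over all genes are the 13.5% lower and 9.37% higher given above. In the same lists Serpinh1 (0.63), one of the other folding factors, and Stub1 (0.16) were higher in KO. Serpinh1 was higher in untreated KO cells too (0.66). In the dip at 30 min of OVA in WT cells, 4 of the 13 core members and 4 of the 14 HSP90 co-chaperones fell and none rose, against 5.15% lower and 5.51% higher over all genes: Chordc1 (-0.36), Fkbp4 (-0.16), Ahsa1 (-0.11) and Ahsa2 (-0.17) beside Hsph1, Hspa8, Dnaja1 and Dnajb1. The HSP70 co-chaperones did not share it: only Bag1 was called, and it rose (0.14, FDR = 0.026, edgeR). No HSF factor and no other folding factor was called there.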

How the data were processed

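The authors deposited 1 table of raw read counts per gene for 30 libraries. Per the labels' protocols, RNA was extracted with Trizol and columns with DNase and libraries were made with TruSeq RNA Library Prep Kit v2, which does not mark strand. Per the submitters' processing notes, STAR 2.5, Subread, featureCounts 1.5.0-p1 and DESeq2 were used with mm10. The annotation, strand setting, treatment of reads matching several places and handling of human reads: not given in the sources used here.

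Counts were fitted with edgeR 4.0.16 (quasi-likelihood F test, R 4.3.3) on all 30 libraries with 1 mean per group, TMM factors and filterByExpr, which kept 14808 genes. FDR is Benjamini-Hochberg over those genes, and the SE is the log2 fold change over the square root of F. Comparisons were KO against WT in 5 conditions, 8 treatments against untreated, 4 interactions, and Jurkat against OVA and 4 h against 30 min with genotypes averaged. The fit was tested on simulated data. Named members are 14 fixed genes in every comparison and, per comparison, up to 6 rises and 6 falls past the threshold, at 5 CPM or more and without overlap. Others are named to account for all members, with no such rule. Pathway genes were named by the 3 smallest p per list, with others chosen after their values were seen. The members and the lists (inducible core, HSF, HSP70 and HSP90 co-chaperones, other chaperones, endoplasmic reticulum genes, and markers of T cells, dendritic cells, plasmacytoid dendritic cells, monocytes and macrophages, basophils and mast cells, stroma and endothelium) were chosen with earlier results of these data known. Marker sums were compared with two-sided exact permutation tests, 34 in all, which cannot pass the threshold with groups of 3. Transcript lengths came from GENCODE and promoters from RefSeq (GRCm38.p6), which held 53 of 67 members. Alternatives were DESeq2 1.42.0, other scalings and filters, a replicate block, fits of the compared groups alone, and leaving out each library. Sums of 2 marker lists without 1 gene each (Kit, Kdr) were added after seeing the data. Libraries of a group correlated at 0.990 or more, and no pair was identical.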

Additional observations from a re-analysis of the deposited data

Results flagged for a closer look

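Members whose response to 4 h of Jurkat cells differed between the genotypes are listed because the difference of the 2 responses itself passed the test (edgeR interaction, FDR under 0.05). On the log2 scale, the KO response minus the WT response was -0.53 for Hsph1, -0.38 for Hspa4l, -0.31 for Hsp90ab1, -0.30 for Dnajb1, -0.25 for Hsp90aa1, -0.22 for Hspd1 and -0.17 for Hspa9. In KO cells Hspa4l fell, and in WT cells its value was above 0 without a call. The other 6 genes rose in both genotypes on TMM-scaled counts, with a smaller value in KO, but by library totals Hspa9 lay below 0 in both genotypes and Hspd1 in KO cells. Hsph1, Hsp90ab1 and Dnajb1 held this call whichever library was left out, the other 4 did not, and a fit of the compared groups alone called 1 member.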

How the results depend on the processing

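Of 337 counts of called members recomputed under an alternative, 302 stayed within 1.5 times the reported count. Scaling moved directions most: by library totals the WT response at 4 h of Jurkat cells turned to -0.31 for Hspa4l, -0.23 for Hspe1, -0.049 for Dnajb4 and -0.064 for Hspa9, and the KO response to -0.11 for Hspd1, -0.29 for Hspe1, -0.016 for Dnajb4 and -0.17 for Hspa9. Jurkat against OVA at 4 h turned to -0.32 for Hspa4l, -0.016 for Hspd1, -0.036 for Hspb1, -0.21 for Dnajb4 and -0.081 for Hspa9, and 4 h against 30 min of Jurkat cells to -0.33 for Hspa4l, -0.0092 for Hspd1, -0.11 for Dnajb4 and -0.29 for Hspa9. Library totals lack the TMM factors, and the median of all genes moved with them. Other alternatives reversed none of the 378 named values, and 251 of 6208 recomputed values lost their call.

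KO against WT in untreated cells gave 2 calls with a filter of 5 CPM and 2 in the groups compared alone. At 4 h of OVA it gave 8 with DESeq2 (1 higher, 7 lower), 7 with DESeq2 size factors, 8 in the groups compared alone, and by library totals 2 higher and 1 lower. At 30 min of Jurkat cells it gave 3 with no filter and 2 in the groups compared alone. In KO cells, OVA gave 4 calls at 30 min with a filter of 5 CPM and 1 at 4 h with no filter. The interaction at 4 h of Jurkat cells gave 1 in the groups compared alone, and 1 higher and 4 lower by library totals. Over all genes library totals gave 661 higher and 200 lower there. The cause was not tested.

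Leaving out 1 library gave 2 to 6 calls for KO against WT untreated, 0 to 5 at 30 min of OVA (0 without KO library 2), 0 to 5 at 4 h of OVA (0 without KO or WT library 1), 2 to 5 at 30 min and 15 to 20 at 4 h of Jurkat cells. Without KO library 2 at 30 min of OVA, the KO group rests on library 1 and the shallow library 3 (9.73 M counts). The lowest counts of 2 came without KO library 1 or WT library 2 or 3 untreated, and without KO library 3 or WT library 1 or 2 at 30 min of Jurkat cells. OVA at 4 h gave 4 to 7 in WT (4 without OVA library 1 or untreated library 2) and 0 to 2 in KO cells (0 without untreated library 1). Jurkat cells at 30 min gave 7 to 12 in KO cells (7 without untreated library 3), and the interaction at 4 h gave 4 to 10 (4 without KO untreated library 1).

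Replicate numbers were not treated as pairs. Deviations of same-numbered libraries within a genotype correlated at medians of 0.0028 to 0.041, with single pairs up to 0.22. With 3 libraries per group this cannot settle whether a number stands for a shared mouse or culture, which the labels do not give. With the replicate block all 37 counts stayed within 1.5 times, such as 49 calls for WT cells at 4 h of Jurkat cells and 18 for KO against WT there. Depth limits the members under 1 CPM, whose calls rest on few counts.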

Other observations

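One subunit of the cytosolic TRiC chamber stood apart from its partners, which fold actin and tubulin as a single complex. Cct3 went from 227 ± 7.37 CPM (SD, n = 3) in untreated WT cells to 954 ± 32.0 CPM after 4 h of Jurkat cells, a log2 fold change of 2.07, and rose by 1.92 in KO cells. The other 7 listed subunits ranged from 0.02 (Cct5) to 0.63 (Cct8) in WT cells, with Tcp1 at 0.59 and Cct2 at 0.18. In KO cells they ranged from -0.11 to 0.48. Among the J-domain genes Dnaja2 rose to 3.74 times its untreated WT level, against 3.06 times for Dnaja1, without being called at 30 min of Jurkat cells (0.09, FDR = 0.24). These genes were singled out after their values were seen, and the cause was not tested.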
